A study of Mus musculus with 10 samples.

Results

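The genes described here are 10 genes that carry peptides to the cell surface on MHC class I molecules, or are listed with that machinery: H2-D1, H2-K1, B2m, Tap1, Tap2, Tapbp, Psmb8, Psmb9, Nlrc5 and H2-DMb1. They were taken by symbol from 55385 gene identifiers, and all 10 were found. They were measured by RNA-seq in 5 libraries of WT31 and 5 of WT31_P5IV, both grown in culture and harvested while sub-confluent. WT31 is a melanoma line from Tyr::NrasQ61K/°; INK4a-/- mice, so both groups carry the NRAS mutation, driven by the tyrosinase promoter, and lack INK4a. WT31_P5IV is the single subline left by 5 rounds in which WT31 cells were injected into a tail vein of female C57Bl/6 mice, recovered from liver metastases and taken back into culture; WT31 was not passaged through the liver, and neither group received a drug. The list was selected on values of this same comparison, so the values of its genes are given as a description and without a test.

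A class I molecule is a polymorphic heavy chain, such as those of H2-D1 and H2-K1, held together with beta-2-microglobulin and a short peptide. The peptides are cut in the cytosol by the proteasome, pumped into the endoplasmic reticulum by the transporter that TAP1 and TAP2 form, and loaded with the help of tapasin. Killer T cells read the peptides on the surface, natural killer cells sense the class I molecules themselves, and melanoma cells are known to lose parts of this pathway.

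The level of the class I genes was higher in WT31_P5IV from the transporter to the heavy chains, by very unequal amounts. Tap1 was 15.4-fold, H2-D1 3.28-fold and H2-K1 2.73-fold higher in CPM (counts relative to the library size, which was scaled by the TMM method), whereas B2m was 1.31-fold and Tapbp 1.36-fold higher. The immunoproteasome genes Psmb8 and Psmb9 and the class I transactivator gene Nlrc5 were at or near the limit of detection in both groups. Of the 10 genes, 7 passed edgeR's filter on low counts, and Psmb8, Psmb9 and Nlrc5 did not. The 7 were higher without overlap of the groups, as were 26.6% of the 13620 genes tested. They had a median log2 fold change of 1.71, and all 13620 genes had one of 0.01. It was 0.95 for the 4 with at least 10 counts in every library and 1.11 on log2(TPM + 1), and Tap2 and H2-DMb1 had few counts in WT31. Among all tested genes, 34.6% were called higher and 33.9% lower by the quasi-likelihood test of edgeR with adjusted p-values below 0.05, and 5.5% were called higher with a log2 fold change of at least 1. As the list was chosen by this comparison, nothing is read from its share.

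The depth was similar in all libraries, 24255389 to 25750639 estimated counts. A gene with 3 counts, taken as the limit of detection per library, stood at 0.1135 CPM (WT31 replicate 2) to 0.1287 CPM (WT31_P5IV replicate 2). The titles call the 5 libraries of a group biological replicates and do not say how they were set up, so every p-value below measures the spread between these libraries of 1 line or subline. In these bulk samples, fewer cells that express a gene and less RNA per cell cannot be told apart. The melanocyte markers were abundant in every library, with 8 of 8 above 3 counts and a summed level of 17110 to 18510 CPM in WT31 and 22280 to 25780 CPM in WT31_P5IV. Within that sum, 3 of the 8 were called higher and 3 lower by edgeR (median log2 fold change −0.002). Of 13 leukocyte and macrophage markers, 4 had more than 3 counts in any library and Cd14, Itgax, Tyrobp and Clec4f were at 0 in all of them. The sum of the 13 was 5.94 to 8.02 CPM in WT31 and 6.22 to 8.10 CPM in WT31_P5IV. Within that sum, Cd68 (1.37 ± 0.455 and 3.74 ± 0.638 CPM) and Fcer1g (1.29 ± 0.169 and 1.77 ± 0.177 CPM) were called higher by edgeR and Lyz2 (4.33 ± 0.530 and 1.08 ± 0.156 CPM) lower. Of 7 hepatocyte markers, Alb, Ttr and Apoa1 had more than 3 counts in at least 1 library. Serpina1a, Cyp3a11, Fgb and Tat were at 0 in every library. The 7 summed to 0.227 to 0.554 CPM in WT31 and 0.402 to 1.18 CPM in WT31_P5IV. The 7 endothelial markers summed to 0.158 to 0.492 and 0.161 to 0.463 CPM. Of these, Pecam1 and Stab2 had more than 3 counts in at least 1 library, and Cdh5 and Lyve1 were at 0. The 7 markers of stellate cells and fibroblasts summed to 1.11 to 1.57 and 1.49 to 1.85 CPM. Pdgfrb, Des, Lrat, Dcn and Acta2 had more than 3 counts in at least 1 library. Acta2 was called higher (0.275 ± 0.164 and 0.758 ± 0.0939 CPM). The part of such cells in the class I values was not tested.

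Of the 10 genes, 8 lie on chromosome 17, B2m on chromosome 2 and Nlrc5 on chromosome 8 (positions from GENCODE M21, GRCm38.p6). From Tapbp (chr17:33915899-33929292, plus strand) the order runs over H2-K1 (chr17:33996017-34000347, minus strand), H2-DMb1 (chr17:34153072-34160230, plus strand), Psmb9 (chr17:34181987-34187764, minus strand), Tap1 (chr17:34187553-34197225, plus strand), Psmb8 (chr17:34197721-34201454, plus strand) and Tap2 (chr17:34203527-34216321, plus strand) to H2-D1 (chr17:35262730-35267499, plus strand). B2m is at chr2:122147686-122153083 and Nlrc5 at chr8:94434356-94527272, both on the plus strand. Promoter sequences of RefSeq (GRCm38.p6) were found for 8 of the 10 genes, and none for Tap2 and Nlrc5. Those of the heavy chains, the light chain and the stretch between Psmb9 and Tap1 are shown here because they belong to the abundant genes of the pathway and to a pair of neighbours that are transcribed apart. Each runs 5′ to 3′ on its gene's strand and ends at the last base before the RefSeq start site. Capitals mark every match to 6 motifs searched on both strands: the kappa-B core of class I enhancers GGGATTCCC, the interferon response core GAAANNGAA, the same core with the other spacing GAANNGAAA, the GAS element TTCNNNGAA, the core of the CRE element TGACG and the CCAAT box.
H2-D1: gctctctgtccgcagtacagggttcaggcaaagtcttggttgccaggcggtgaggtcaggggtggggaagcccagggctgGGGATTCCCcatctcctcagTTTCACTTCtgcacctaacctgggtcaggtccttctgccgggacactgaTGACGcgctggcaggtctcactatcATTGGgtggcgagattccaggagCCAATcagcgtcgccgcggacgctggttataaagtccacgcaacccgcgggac
H2-K1: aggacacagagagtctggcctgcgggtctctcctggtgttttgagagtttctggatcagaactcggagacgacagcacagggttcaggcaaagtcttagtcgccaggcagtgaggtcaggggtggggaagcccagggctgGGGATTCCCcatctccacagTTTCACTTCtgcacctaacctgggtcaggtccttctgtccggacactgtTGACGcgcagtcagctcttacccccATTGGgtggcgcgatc
B2m: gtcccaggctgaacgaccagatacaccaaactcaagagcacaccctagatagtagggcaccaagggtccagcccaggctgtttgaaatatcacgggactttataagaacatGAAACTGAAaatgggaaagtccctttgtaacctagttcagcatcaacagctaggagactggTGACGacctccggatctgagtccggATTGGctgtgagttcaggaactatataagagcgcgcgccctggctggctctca
Tap1: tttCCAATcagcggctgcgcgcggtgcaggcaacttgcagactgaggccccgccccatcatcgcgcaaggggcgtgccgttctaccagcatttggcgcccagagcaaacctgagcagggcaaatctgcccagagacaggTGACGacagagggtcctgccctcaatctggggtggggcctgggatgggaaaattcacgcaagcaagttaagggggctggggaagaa
They are at chr17:35262844-35263093 for H2-D1, chr17:34000348-34000597 for H2-K1, chr2:122147437-122147686 for B2m and chr17:34187331-34187555 for Tap1.

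The promoters of H2-D1 and H2-K1 had the same run of motifs. The kappa-B core, the class I element read by NF-kB, was at −170 from the start site in H2-D1 and at −110 in H2-K1. In both genes the core GAANNGAAA began 20 bases after it (as TTTCACTTC on the gene's strand), the CRE core 49 bases later and the first CCAAT box 25 bases after that. Aligned without gaps at the kappa-B core, 166 of 190 upstream bases (87.4%) were the same. The kappa-B core was in 0.353% of the 32851 promoter windows of the same length of 300 bases, and GAANNGAAA, which was added after the windows had been looked at, in 7.52%. B2m had GAAANNGAA at −139, a core present in 8.56% of windows, with a CRE core at −78 and a CCAAT box at −53. Tap1 and Psmb9 are transcribed away from each other, and 225 bases lie between their RefSeq start sites. Both share 1 CRE core, at −86 from the start of Tap1, and 1 CCAAT box. Of the 8 genes with a window, 5 held the CRE core, against 20.8% of all windows, and 7 held the CCAAT box, against 37.4%. GAS was in Psmb8 and in 8.30% of windows. These matches are letters in a window and say nothing of binding in these cells.

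**Figure D1:**
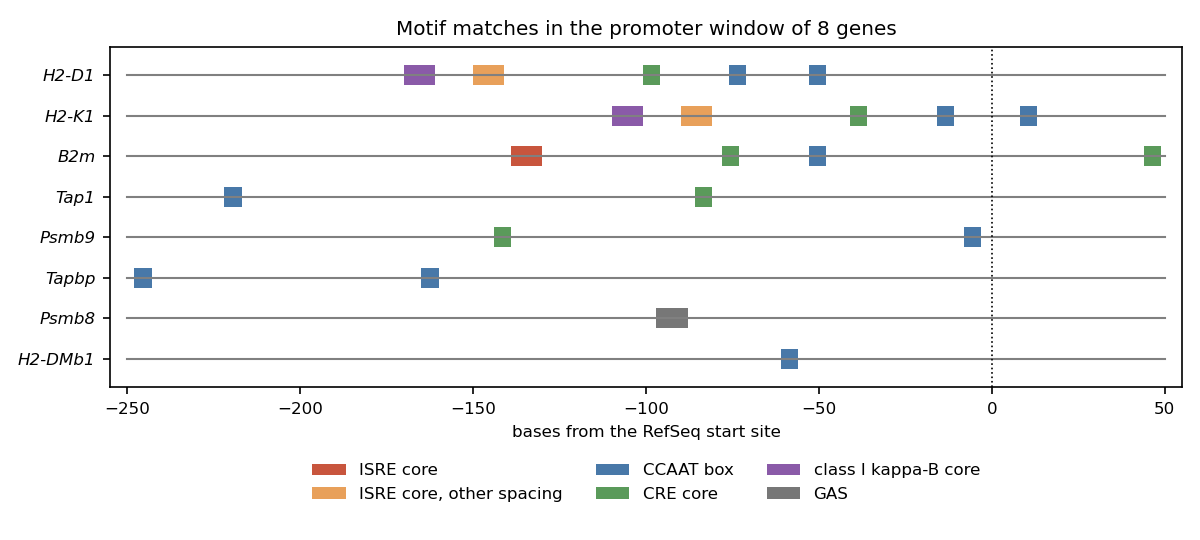
Motif matches in the promoter windows of 8 genes by distance from the RefSeq start site in bases, where each coloured block is a match on either strand and the dotted line is the start site. H2-D1 and H2-K1 carry the kappa-B core, the interferon core with the other spacing, the CRE core and the CCAAT box in the same order, shifted towards the start site in H2-K1.

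H2-D1 and H2-K1 encode the classical heavy chains. H2-D1 was at 16.9, 14.1, 16.2, 18.1 and 19.0 CPM in WT31 libraries 1 to 5 and at 54.9, 57.6, 54.8, 53.1 and 55.8 CPM in those of WT31_P5IV. The lowest library of WT31_P5IV was far above the highest of WT31, and the means were 16.9 ± 1.87 and 55.2 ± 1.66 CPM (SD, n = 5 each). The log2 fold change was 1.71 with a standard error of 0.06. H2-K1 was at 4.70, 4.47, 4.43, 5.27 and 5.27 CPM in WT31 and at 12.0, 15.7, 13.6, 11.6 and 12.9 CPM in WT31_P5IV. Its groups did not overlap either, with a log2 fold change of 1.45 and a standard error of 0.09. In TPM, the measure of transcripts that is corrected for length, H2-D1 was the more abundant of the pair in every library. The ratio of H2-D1 to H2-K1 was 1.57 to 1.94 in WT31 and 2.03 to 2.36 in WT31_P5IV, so it too was higher in WT31_P5IV without overlap. Heavy chain genes have near-identical stretches: 26.9% of the 31-base words of H2-D1 transcripts and 22.8% of those of H2-K1 also occur in other genes, most often in each other. The estimates split such reads, and whether WT31 carries the alleles of the reference was not tested. Summed, H2-D1 and H2-K1 were 3.15-fold higher in CPM, and the sum over 32 class I symbols was 2.26-fold higher, from 40.3 ± 2.07 to 91.0 ± 3.24 CPM (n = 5 each).

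B2m encodes the light chain that all classical class I molecules share. It was at 360, 337, 347, 373 and 394 CPM in WT31 and at 479, 495, 459, 479 and 459 CPM in WT31_P5IV. No WT31 library reached the lowest of WT31_P5IV, yet the step was small beside those of the heavy chains, with a log2 fold change of 0.39 and a standard error of 0.04. On log2(TPM + 0.1) the difference was 0.21, and there H2-D1 differed by 1.54, H2-K1 by 1.19 and Tapbp by 0.18. None of the 31-base words of B2m occurs in another gene. B2m was in large excess over the heavy chains in both groups. The ratio of its TPM to the sum of H2-D1 and H2-K1 was 38.2 ± 2.19 in WT31 and 16.4 ± 0.798 in WT31_P5IV (n = 5 each), with ranges of 35.4 to 40.6 and 15.5 to 17.5.

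Tap1 and Tap2 encode the subunits of the peptide transporter, and Tapbp encodes tapasin, which bridges the transporter and the heavy chain. Tap1 had 0.431, 0.227, 0.431, 0.393 and 0.554 CPM in WT31, which is 6 to 14 counts a library. In WT31_P5IV it had 6.81, 7.08, 6.35, 5.77 and 5.21 CPM, or 126 to 165 counts. Every library of WT31 was low and every one of WT31_P5IV high, with a log2 fold change of 3.94 and a standard error of 0.17. It was 3.02 on log2(TPM + 0.1) and 1.66 on log2(TPM + 1), scales that differ from CPM both in length correction and in the constant added. Tap2 was low throughout. Its CPM were 0.196, 0, 0.314, 0.236 and 0.119 in WT31 and 1.09, 0.686, 0.442, 0.674 and 0.702 in WT31_P5IV, from 22 and 86 counts in all. The groups did not overlap, and the ratio of summed counts was 4.18 with a counting interval of 2.59 to 7.01 (95%, exact). Tap2 overlaps the transcript Gm15821, which holds 11.3% of its words, so part of its counts is uncertain. Tapbp was at 18.8, 18.0, 17.3, 19.3 and 19.8 CPM in WT31 and at 25.2, 26.1, 26.4, 24.4 and 24.5 CPM in WT31_P5IV, a log2 fold change of 0.44 with a standard error of 0.05. The groups of Tapbp did not overlap in CPM but did in TPM, where WT31 had 13.6 ± 1.64 and WT31_P5IV 15.4 ± 0.966 (n = 5 each), and 22.1% of its words occur in Gm19412. The TPM of Tapbp was 47.0 ± 7.22 times that of Tap1 in WT31 and 5.02 ± 0.266 times in WT31_P5IV.

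**Figure D2:**
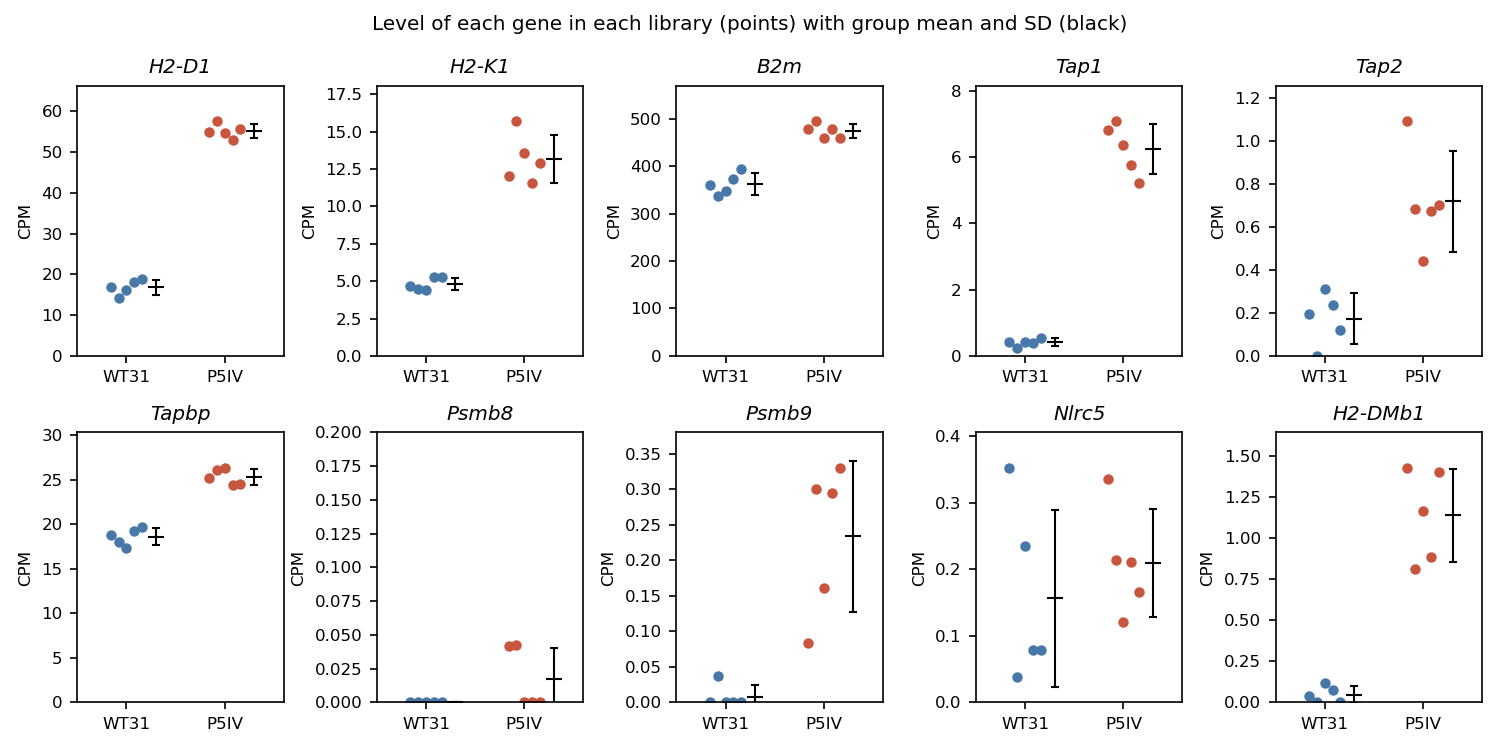
CPM of each of the 10 genes in each library (points; WT31 blue, WT31_P5IV red) with the group mean and SD in black, n = 5 per group and an axis of its own for each gene. The groups are apart for H2-D1, H2-K1, B2m, Tap1, Tap2, Tapbp, Psmb9 and H2-DMb1, with Psmb9 at 0.331 CPM or less, and overlap for Psmb8 and Nlrc5.

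Psmb8 and Psmb9 encode catalytic subunits that replace those of Psmb5 and Psmb6 when the immunoproteasome is built. Psmb8 had no count in any WT31 library and 1, 1, 0, 0 and 0 counts in WT31_P5IV, so no difference was detectable at this depth. Psmb9 had 0, 1, 0, 0 and 0 counts in WT31 and 2, 7, 4, 7 and 8 counts in WT31_P5IV. The ratio of its summed counts, 28 over 1, was 29.9 with a counting interval of 4.95 to 1223, and the level in WT31_P5IV was 0.234 ± 0.106 CPM (n = 5). Its groups were apart in CPM but overlapped in TPM. The TPM of Psmb9 was at most 0.00181 of that of Psmb6 in any library, and that of Psmb8 at most 0.00136 of that of Psmb5. In GENCODE a first exon of Psmb9 runs over first exons of Tap1 on the other strand, and 4.79% of the words of Psmb9 are shared with Tap1 on either strand. As the strand setting of the counting is not given in the sources used here, Psmb9 counts that belong to Tap1 cannot be told apart from its own. Nlrc5 encodes the transactivator that works on class I promoters. It had 9, 1, 6, 2 and 2 counts in WT31 and 8, 5, 3, 5 and 4 in WT31_P5IV. Its groups overlapped, and the ratio of 25 to 20 summed counts was 1.34 with a counting interval of 0.712 to 2.54.

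H2-DMb1 encodes a beta chain of H2-M, a helper that edits peptides on class II molecules, so its place in a class I list does not follow from its function. It had 1, 0, 3, 2 and 0 counts in WT31 and 34, 19, 29, 21 and 34 in WT31_P5IV, or 0.815 to 1.43 CPM. The groups were apart, and the ratio of summed counts was 24.4 with a counting interval of 10.9 to 67.6. The edgeR estimate was a log2 fold change of 4.61 with a standard error of 0.45, which was 5.27 without WT31 replicate 3, 3.16 on log2(TPM + 0.1) and 1.20 on log2(TPM + 1). Its words are shared by 31.4% with H2-DMb2, which had at most 2 counts in any library. The alpha chain gene of the same molecule, H2-DMa, averaged 0.969 ± 0.237 CPM in WT31 and, in WT31_P5IV, 1.14 ± 0.212 CPM (n = 5 each, edgeR adjusted p = 0.306).

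The steps between the genes were thus unlike in level and in size. In TPM, which are per length, B2m was first in both groups with 812 ± 25.5 and 938 ± 13.9. In WT31 Tapbp (13.6 ± 1.64) and H2-D1 (13.5 ± 1.09) followed and did not differ beyond their spread, then H2-K1 with 7.83 ± 0.833. In WT31_P5IV the order was H2-D1 with 39.5 ± 1.25, H2-K1 with 18.0 ± 1.61, Tapbp with 15.4 ± 0.966 and Tap1 with 3.07 ± 0.227, with H2-K1 above Tapbp. Tap1 was at 0.292 ± 0.0304 TPM in WT31, and the group means of the other 5 genes were at most 1.58 TPM. Their mean levels in WT31 were under 0.13 TPM, with spreads near or above the mean.

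**Figure D3:**
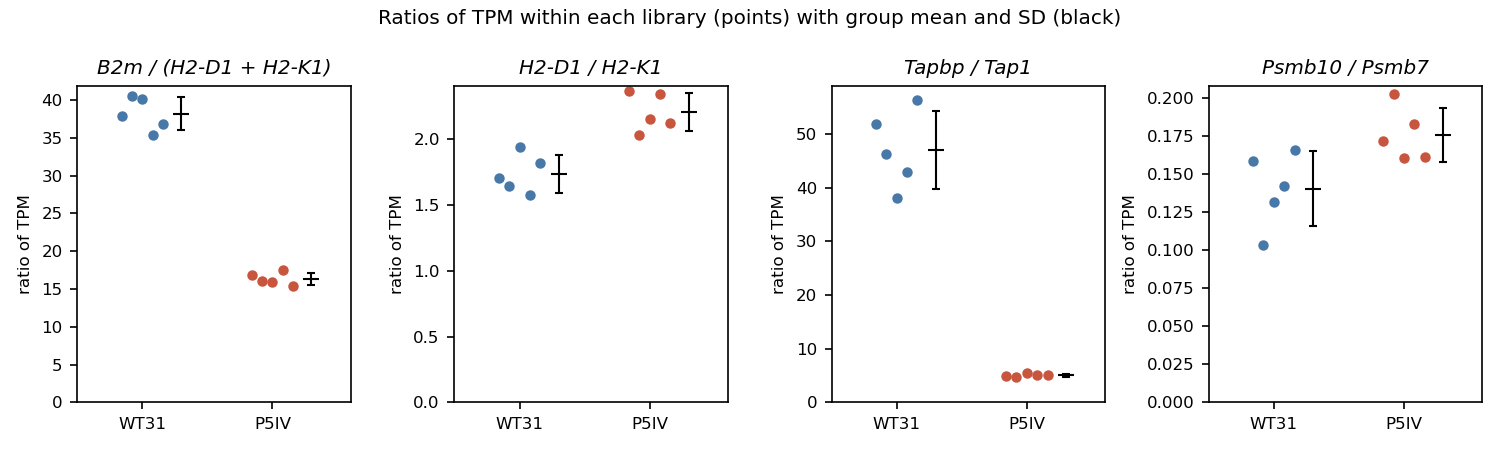
Ratios of TPM within each library (points; WT31 blue, WT31_P5IV red) with the group mean and SD in black, n = 5 per group. The mean of B2m over the sum of the heavy chains is 38.2 in WT31 and 16.4 in WT31_P5IV and that of Tapbp over Tap1 47.0 and 5.02, without overlap, whereas the ratio of Psmb10 to Psmb7 (0.141 and 0.176) overlaps.

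Genes outside the list describe the rest of the pathway, and they were not used to choose that list. Their own lists were drawn up with earlier results of these data known, so the calls are not independent support. The genes stand in lists of 5 to 40, each read against the 34.6% and 33.9% of all genes called higher and lower. With limma on log2(TPM + 0.1), these shares of all genes were 21.4% higher and 43.7% lower, with a median log2 fold change of −0.138, and counts on that scale are read against them. Beyond H2-D1 and H2-K1, 8 of 28 other class I and class I-like genes could be tested, of which 3 rose, 1 fell and 4 did not pass (median log2 fold change 0.14). On log2(TPM + 0.1) 3 rose and 3 fell (median 0.02). H2-Q4, a gene of the Qa region, rose from 0.219 ± 0.0532 to 1.72 ± 0.228 CPM (log2 fold change 2.97, SE 0.21, adjusted p = 1.11e-08). H2-T23, which encodes Qa-1, a ligand of natural killer receptors, rose from 0.796 ± 0.129 to 2.04 ± 0.498 CPM (log2 fold change 1.36, adjusted p = 2.06e-05). Fcgrt, the neonatal Fc receptor that also pairs with beta-2-microglobulin, rose from 6.80 ± 0.523 to 12.8 ± 0.830 CPM (log2 fold change 0.91, adjusted p = 2.88e-08). Mr1, which presents vitamin metabolites, fell from 26.9 ± 0.457 to 24.1 ± 0.921 CPM (adjusted p = 3.81e-03). The abundant H2-T22 had 14.8 ± 0.860 and 15.8 ± 0.577 CPM and did not pass (log2 fold change 0.09, adjusted p = 0.151, with means of 14.5 and 13.3 in TPM), nor did H2-T24, Hfe and Mill2. Of H2-Q4 transcripts 53.0% of words occur in other genes and of H2-T22 67.4%, so single genes of these families are uncertain. H2-T10, too low for the test, had 0 to 0.0757 CPM in WT31 and 0.211 to 0.454 CPM in WT31_P5IV.

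Genes that load and trim peptides were mostly higher in WT31_P5IV. Of 14 tested, 12 rose and 1 fell, with a median log2 fold change of 0.42, which was 0.25 with limma on log2(TPM + 0.1), where 8 rose and 1 fell. Sec61a1, the channel into the endoplasmic reticulum, went from 235 ± 2.56 to 455 ± 24.8 CPM (log2 fold change 0.96, adjusted p = 4.16e-11). Ganab, which trims glycans in calnexin folding, went from 309.9 ± 4.63 to 558 ± 30.1 CPM, and Erap1, the aminopeptidase that shortens peptides, from 20.5 ± 1.40 to 34.4 ± 3.32 CPM (log2 fold changes 0.85 and 0.74). Tapbpl, a tapasin relative that also edits peptides, rose from 2.19 ± 0.296 to 3.61 ± 0.465 CPM (log2 fold change 0.72, adjusted p = 1.38e-04). The chaperone gene Calr, the highest of them in CPM, had a log2 fold change of 0.14 (adjusted p = 0.0186) that turned to −0.08 on the TPM scale. Its call was also lost without WT31 replicate 2 or 3 or WT31_P5IV replicate 2 or 3 (edgeR adjusted p = 0.0551 to 0.0591), in voom without scaling or filter (0.311) and with a filter at 1 count (0.219). Many of these genes serve the folding of all secreted proteins. The cytosolic peptidase gene Tpp2 fell by 0.40 on the log2 scale and Lnpep did not pass.

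**Figure D4:**
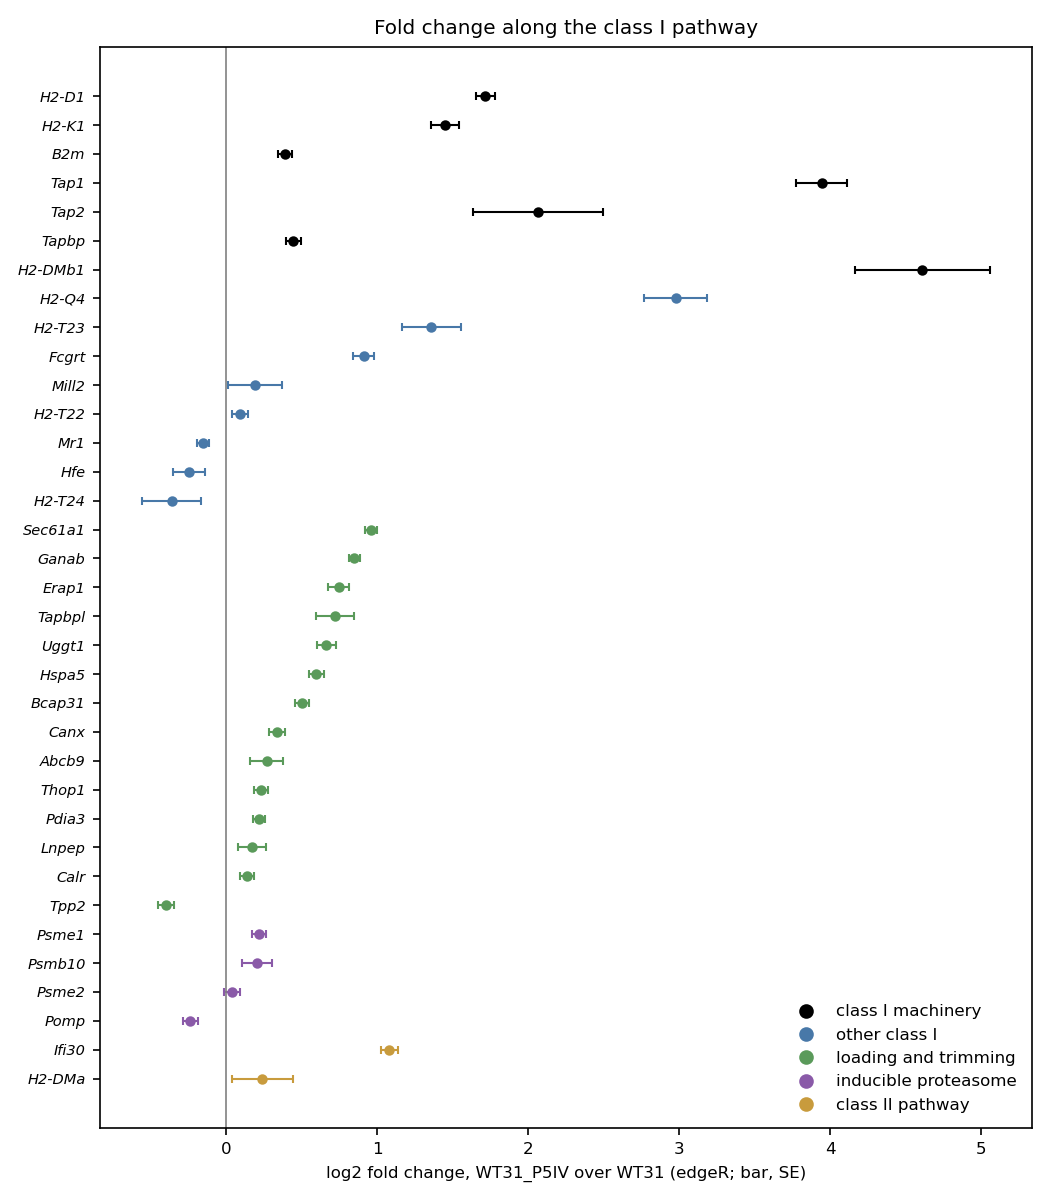
Log2 fold change of WT31_P5IV over WT31 (edgeR, bars are SE, n = 5 libraries per group) for the 7 listed genes that passed the filter (black) and for the tested genes of 4 related lists. The loading genes lie between −0.40 and 0.96, a range that holds B2m (0.39) and Tapbp (0.44), while the other listed genes, chosen on this comparison, lie at 1.45 to 4.61.

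Fold changes of the proteasome genes were small. Of 4 tested inducible genes outside the list, Psme1 of the PA28 activator rose (log2 fold change 0.22, adjusted p = 9.55e-04, not passing on the TPM scale) and Pomp, the assembly factor, fell by 0.24 on the log2 scale (adjusted p = 7.20e-04). Psmb10, the third inducible catalytic subunit and the only one well above the limit of detection, had 9.12 ± 1.48 and 10.5 ± 0.648 CPM (adjusted p = 0.0791). It passed without WT31 replicate 1 or without WT31 replicate 5 (edgeR adjusted p = 0.0483 each), which brings the called genes of this list from 2 to 3. Psme2 did not pass (log2 fold change 0.04, which turned negative in TPM). The ratio of Psmb10 to its constitutive counterpart Psmb7 was 0.104 to 0.166 in WT31 and 0.161 to 0.203 in WT31_P5IV, a difference of 0.34 in log2 (two-sided exact permutation test, p = 0.0317, where 0.00794 is the smallest possible). Its groups overlapped, and it did not pass without any of WT31 replicates 2, 3 and 4 or WT31_P5IV replicates 1, 2 and 4 (exact p = 0.0635 each). In TPM Psmb7 was lower in WT31_P5IV without overlap (211.7 ± 6.17 and 180.2 ± 10.2). The TPM of Psmb10 overlapped (29.85 ± 5.79 and 31.6 ± 1.895), so the ratio does not stand for a rise of Psmb10 alone. On counts Psmb7 did not pass (edgeR adjusted p = 0.256). Of the 14 constitutive 20S genes, 2 rose and 5 fell (median log2 fold change −0.03), and on log2(TPM + 0.1) 1 rose and 8 fell (median −0.21, and −0.138 over all genes, of which 43.7% fell). The values on counts ran from −0.35 for Psma4 to 0.39 for Psmb5, which did not pass in voom without scaling or filter. Psma5 and Psma2 fell by 0.26 and 0.25 on the log2 scale, and Psmb1, the highest of the list in CPM, did not pass on counts but fell by 0.21 on log2(TPM + 0.1) (limma adjusted p = 6.84e-04).

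Of 12 other genes of class II presentation, to which H2-DMb1 belongs, 10 were too low to test, and H2-DMa and Ifi30 were tested. H2-Aa and the protease gene Ctss had no count in any library, Cd74 at most 5 counts and the class II transactivator gene Ciita at most 6. Ifi30, a lysosomal thiol reductase, rose from 54.3 ± 5.03 to 115 ± 4.37 CPM (log2 fold change 1.08, adjusted p = 5.48e-10).

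The genes of the factors that NLRC5 and CIITA work with were called in both directions. Of 11 enhanceosome genes, 2 rose and 6 fell, with a median log2 fold change of −0.15, and on log2(TPM + 0.1) 1 rose and 7 fell, beside 21.4% and 43.7% of all genes. Rfxank of the RFX complex rose (log2 fold change 0.33, adjusted p = 3.74e-05), whereas Atf1 fell by 0.31, the coactivator gene Crebbp by 0.29 and Kat2b by 0.44 on the log2 scale. Ep300, the highest in CPM, which is not corrected for length, had a log2 fold change of −0.02 that turned positive with upper-quartile scaling.

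Interferon is the known inducer of class I genes. Of 18 tested signaling genes, 8 rose and 4 fell, with a median log2 fold change of 0.05 that turned to −0.20 in TPM (+ 0.1), where 6 rose and 9 fell and the median of all genes was −0.138 with 43.7% lower. Ifngr1, a chain of the interferon gamma receptor, rose from 26.8 ± 1.27 to 49.4 ± 2.81 CPM (log2 fold change 0.88, adjusted p = 9.33e-10). Irf3 rose by 0.50 in log2, and Stat3, Irf2 and Jak1, the highest of the list in mean CPM over all libraries, fell by 0.56, 0.51 and 0.23 on the log2 scale. Irf1, named after its values had been seen, did not pass (adjusted p = 0.0662), and Ifng and Ifnb1 had no count in any library. Of 40 interferon-stimulated genes only 13 were high enough to test, with 5 higher (38.5%) and 5 lower (38.5%), near the shares of all genes, and on log2(TPM + 0.1) 3 were higher and 5 lower (median 0.04). Gbp7, a guanylate-binding GTPase, fell from 1.84 ± 0.242 to 0.308 ± 0.124 CPM (log2 fold change −2.58, adjusted p = 1.82e-07), the chemokine gene Cxcl10 from 8.09 ± 0.652 to 4.76 ± 0.639 CPM and Ifitm3 from 112 ± 10.8 to 80.1 ± 4.73 CPM. Bst2 rose by 0.65 in log2, and Rsad2 by 0.74 though it did not pass on the TPM scale.

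NF-kB is the factor known for the kappa-B core seen in both heavy chain promoters. Of its 12 genes 3 rose and 7 fell, with a median log2 fold change of −0.17, and on log2(TPM + 0.1) 0 rose and 7 fell (median −0.24), beside 21.4% and 43.7% of all genes. Tnfaip3, a target and brake of the pathway, fell from 0.842 ± 0.181 to 0.227 ± 0.0999 CPM (log2 fold change −1.90, adjusted p = 3.96e-05). Rel fell by 0.54 and Ikbkg by 0.39 on the log2 scale, Rela, the highest in CPM, by 0.15, and Relb rose by 0.36 (not passing on the TPM scale).

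The surface ligands that T and natural killer cells read beside class I moved in both directions, 8 of 11 up and 3 down. The NKG2D ligand gene H60b fell from 2.68 ± 0.308 to 0.535 ± 0.149 CPM (log2 fold change −2.33, adjusted p = 3.90e-08), while H60c rose by 1.30 in log2 from 0.227 ± 0.0821 CPM. The abundant NKG2D ligand gene Ulbp1 rose from 148 ± 15.9 to 227 ± 11.7 CPM (log2 fold change 0.62). Nectin2, read by DNAM-1, rose from 16.5 ± 0.799 to 31.2 ± 2.44 CPM (log2 fold change 0.92), and Cd80, the T cell costimulator gene, fell from 0.523 ± 0.0964 to 0.259 ± 0.0644 CPM (adjusted p = 2.68e-03). On the TPM scale 7 of the 11 were called, 4 up and 3 down.

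As most of the listed genes sit in the MHC region, its other genes were compared as well. Between the first and the last H2- gene (chr17:33974659-37483552, 3.51 Mb), 75 genes that are neither listed nor named H2- could be tested. Of these 43 (57.3%) rose and 11 (14.7%) fell, with a median log2 fold change of 0.24, and on log2(TPM + 0.1) 31 rose and 18 fell with a median of 0.08, beside 21.4% and 43.7% of all genes. C2, a complement gene, rose from 26.3 ± 1.56 to 76.3 ± 3.85 CPM (log2 fold change 1.54, SE 0.05, adjusted p = 2.85e-12). Notch4, Msh5 and Egfl8 rose by 1.24, 1.21 and 1.17 in log2 from levels under 0.61 CPM, of which Notch4 did not pass on the TPM scale. In the stretch from H2-DMa to Tap2, H2-DMb1, Tap1, Psmb9 and Tap2 are neighbours with Psmb8, which stayed at 0 or 1 count.

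**Figure D5:**
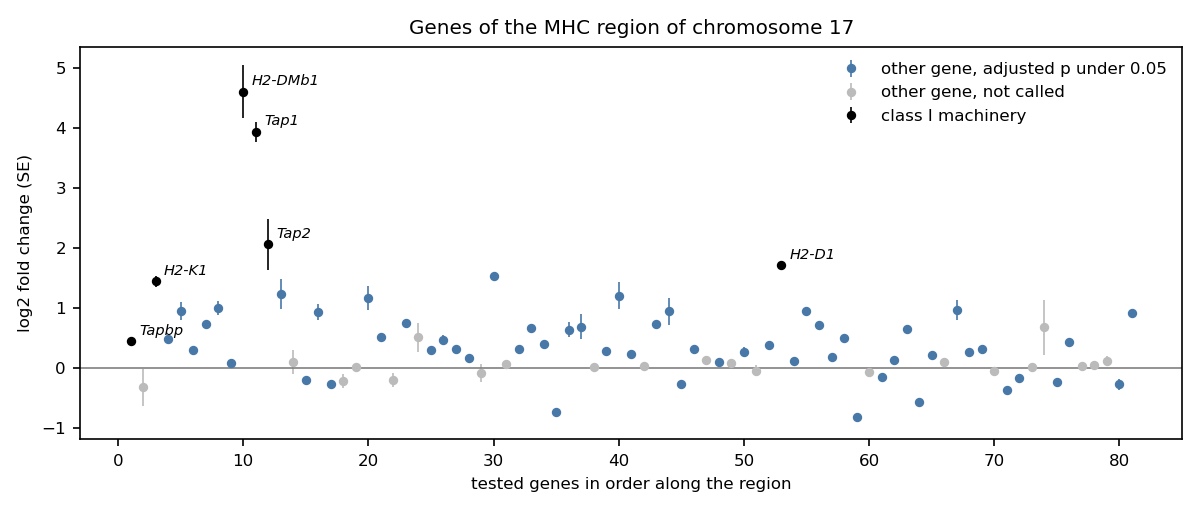
Log2 fold change of WT31_P5IV over WT31 (edgeR, bars are SE, n = 5 libraries per group) for the listed genes on chromosome 17 that passed the filter (black) and the 75 tested genes of the MHC region that are not named H2-, in their order. The listed genes were chosen on this comparison, so their place above the others is no finding, the highest of the 75 is C2 at 1.54, and other genes named H2-, such as H2-Q4 (2.97), are not drawn.

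Genes outside all lists were also ordered by the Euclidean distance of their centred log2 CPM over the 10 libraries from the mean profile of the 7 listed genes that passed the filter. As these were chosen on this comparison, that profile is mainly a step of 1.83 in log2 between the groups, and genes near it are genes with a step of that size. Among the nearest were D930048N14Rik (distance 0.452), Speg (0.461), 1600020E01Rik (0.496) and Inha (0.517), with log2 fold changes of 1.83, 1.70, 1.72 and 1.71. H2-D1 was at 0.435 and H2-K1 at 0.883 from that profile, Tap2 at 1.46, and B2m, Tapbp, H2-DMb1 and Tap1 at 2.26 to 3.05, so the profile stands for few of the 7 genes.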

How the data were processed

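RNA-seq libraries of cultured WT31 (n = 5) and WT31_P5IV (n = 5) were compared as independent samples. The authors trimmed reads with Trim Galore 0.6.4, quantified transcripts of GRCm38.p6 with kallisto (0.4.6 in the submitters' processing notes) and deposited estimated counts and TPM per gene. The labels name instruments of different makers, and the annotation release is not given in the sources used here. Of 55385 identifiers, 55144 were found in GENCODE M21 by stable identifier without version.

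Estimated counts were rounded to whole numbers, filtered by filterByExpr, scaled by TMM and tested by the quasi-likelihood test of edgeR 4.0.16 (R 4.3.3) with Benjamini-Hochberg adjustment over 13620 genes. SEs were derived from the F statistic as |log2 fold change| over its root. CPM use TMM library sizes. Intervals of count ratios are exact binomial and cover counting error only, as does the limit of 3 counts. Alternatives were upper-quartile scaling, DESeq2 1.42.0, limma 3.58.1 (voom without scaling or filter, and log2 TPM + 0.1 or + 1), a filter at 1 count in all or at 10 counts in each library, a replicate block, and each library left out.

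The genes and the lists were chosen with earlier results of these data known. Named were all 10 genes, every tested gene of lists with up to 6, otherwise the 4 largest changes with an adjusted p under 0.05 and the gene with the highest mean CPM, the 4 largest of the MHC region and the 5 most alike, and any other gene named was chosen after its values were seen. H2-T9 and Nrdc were not matched by symbol. Values of some single genes are not reported here. Shared sequence was counted as 31-base words of GENCODE M21 transcripts.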

Additional observations from a re-analysis of the deposited data

Results flagged for a closer look

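Of 118 groups of 5 libraries (the 10 listed genes and the named genes), 5 had 1 library far from the rest, and chance alone gives about 1 in 20. Psmb9 was at 0.0378 CPM in WT31 replicate 2, which is 1 count, with the other 4 at 0. H2-T23 was at 1.02 CPM in WT31 replicate 3, and the next library was at 0.786. Psma5 was at 56.7 CPM in WT31_P5IV replicate 3, below 61.1 in the next. Rsad2 was at 0.713 CPM in WT31 replicate 5, and the next lowest was at 1.02. H60c was at 0.842 CPM in WT31_P5IV replicate 4, and the next was at 0.537. These libraries differ from gene to gene.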

How the results depend on the processing

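The genes called numbered 9327, between 8622 and 10163 under the other settings, and 8965 to 9444 with 1 library left out. On log2(TPM + 0.1) 2915 were higher and 5946 lower, against 4709 and 4618 on counts. The median log2 fold change of the 7 listed genes that passed, H2-DMb1 among them, was 1.71, and 1.64 to 1.75 with 1 library left out. It was 0.95 with at least 10 counts in every library (4 genes left), 1.54 on log2(TPM + 0.1) and 1.11 on log2(TPM + 1). Called among other class I genes were 4 of 8 tested, 7 of 27 with limma voom without scaling or filter and 8 of 21 with at least 1 count. Interferon-stimulated genes called rose from 10 to 16 of 40 with at least 1 count. Of these, 6 were higher and 10 lower, beside 4718 higher and 5445 lower of all 31234 genes. In voom without scaling or filter 4 were higher and 9 lower, beside 3833 and 4974 of all 55385. On both TPM scales inducible proteasome genes called fell from 2 to 1 and ligands from 11 to 7.

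Same-numbered libraries correlated at −0.014, 0.067, 0.178, 0.08 and −0.096 in their deviations, so no pairing by replicate number was seen. These values cannot exclude a pairing. The replicate numbers are those of the titles, and the WT31 file labels number the libraries otherwise. With the replicate block 9380 genes were called. The ratio of Psmb10 to Psmb7 differed by 0.34 in log2, by 0.23 to 0.40 with 1 library left out, and by 0.34 in the sign-flip over the replicate block (exact p = 0.125, where 0.0625 is the smallest possible). It was 0.27 as a ratio of CPM (exact p = 0.0238). Directions turned for Ep300 with upper-quartile scaling (0.006) and with 1 library left out (−0.075 to 0.012), for Psme2 in voom (−0.032), with at least 1 count (−0.018), in TPM (−0.093 with 0.1 added and −0.092 with 1) and with 1 library left out (0.00 to 0.056), and for Calr in TPM (−0.079 with either). The cause was not tested where none is given. H2-DMb1 had a log2 fold change of 5.27 without WT31 replicate 3. On log2(TPM + 1), Tap1 had 1.66, H2-DMb1 1.20 and Tap2 0.45. None of the 7 listed genes that passed the filter changed direction in the settings in which they could be fitted (4 of them with at least 10 counts in every library). Psmb8, Psmb9 and Nlrc5 are limited by depth.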
